A study of Mus musculus with 18 samples.

Results

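Knockdown of Pus1 for 3 days (KD3) in NIH/3T3, a line of mouse embryonic fibroblasts, was the condition examined, with small RNAs sequenced before (input) and after a pseudouridine immunoprecipitation (Ψ-IP, here IP). The 3 KD3 IP libraries and 3 KD3 input libraries were taken by their column labels and are 6 of the 18 libraries of the series. Cells labelled WT, with 3 IP and 3 input libraries, served as the comparison, and a day 6 knockdown makes up the other 6 libraries. The knockdown was by siRNA per the study's supplement, and whether the WT cells received a control siRNA was not given in the sources used here. Pus1 mRNA is not measured by a miRNA table, so the knockdown itself could not be checked in these libraries. An IP with a control antibody was not analysed here, so a ratio of IP to input holds all that sets how well an RNA is recovered with this antibody.

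A miRNA is cut from a hairpin precursor, whose arms give the 5p and 3p strands, and the retained guide strand directs Argonaute proteins to messenger RNAs through its seed, bases 2 to 8. Ψ is an isomer of uridine made in place by Ψ synthases. Pus1 is one of these enzymes and is known for its work on transfer RNAs, and other synthases such as dyskerin, TruB1 and Pus7 act on other sites. The comparison of IP with input asks which miRNAs were recovered with the Ψ antibody in cells with Pus1 knocked down, and the comparison with WT asks whether that recovery differed.

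The mature sequences below are those on which the results turn, from RefSeq for GRCm38, written 5′ to 3′ with the seed in capitals. First come members of the let-7 family, recovered in IP to different degrees, which share a seed except for the last base of that of let-7j.
let-7e-5p: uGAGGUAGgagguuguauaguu
let-7a-5p: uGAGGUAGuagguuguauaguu
let-7f-5p: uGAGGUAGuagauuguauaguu
let-7i-5p: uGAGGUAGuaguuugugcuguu
let-7j: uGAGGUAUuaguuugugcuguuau
Next come pairs of close relatives whose ratios lay far apart, miR-100-5p with miR-99a-5p and miR-20a-5p with miR-17-5p.
miR-100-5p: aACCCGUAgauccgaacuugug
miR-99a-5p: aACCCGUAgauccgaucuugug
miR-20a-5p: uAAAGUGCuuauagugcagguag
miR-17-5p: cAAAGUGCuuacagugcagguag
The last set holds miR-92a-3p, with the highest ratio among those at 100 CPM or more, and miR-10b-5p, abundant and higher in IP. It also holds miR-21a-5p, the most abundant miRNA of the input, and some of the lowest in IP.
miR-92a-3p: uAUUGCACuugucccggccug
miR-10b-5p: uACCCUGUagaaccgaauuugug
miR-21a-5p: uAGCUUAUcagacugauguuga
miR-30a-5p: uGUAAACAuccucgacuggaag
miR-30e-5p: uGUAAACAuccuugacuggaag
miR-101a-3p: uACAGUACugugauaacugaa
miR-381-3p: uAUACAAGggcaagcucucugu

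The KD3 inputs held 8622901 to 15099781 mapped reads and the KD3 IP libraries 4079020 to 10152284. Levels are given in CPM, the reads of a miRNA scaled to a common total of miRNA reads with TMM factors, and since a read is a whole miRNA no length correction was made. The table listed 1907 mature miRNAs, of which 1114 had a read in KD3 libraries and 550 passed the abundance filter and were tested. Replicate libraries correlated at r = 0.9955 to 0.998 among inputs and 0.9867 to 0.9893 among IP libraries, across 188 abundant miRNAs. Fibroblast and mesenchyme markers summed to 415000 to 446000 CPM in the inputs, all 9 detected, chiefly miR-21a-5p at 363000 to 391000 CPM. In IP they summed to 75200 to 109000 CPM. In the inputs the 5 markers of pluripotent cells were at 0, those of blood summed to at most 0.675 CPM and those of muscle to at most 106 CPM. Epithelium markers summed to at most 2.96 CPM there, and miR-122-5p of hepatocytes was at 24.4 to 30.5 CPM. In IP the muscle markers summed to 259 to 441 CPM and miR-122-5p was at 80.8 to 87.3 CPM. Neuron markers summed to 3560 to 3730 CPM in input and 8210 to 8800 CPM in IP, chiefly miR-9-5p, and miR-124-3p, which defines neurons, was at most 0.675 CPM. Of mapped reads, those in no miRNA row were 9.66% ± 0.275 (SD, n = 3) in KD3 input and 32.4% ± 5.26 in KD3 IP, against 5.60% ± 0.224 and 16.8% ± 1.88 in WT. What these reads are cannot be told from the table, and their part in the ratios below was not tested.

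Ψ-IP reshaped the miRNA pool of KD3 cells in both directions. let-7 guides, miR-92a-3p and miR-10 family members were higher in IP, while miR-30a-5p, miR-30e-5p, miR-101 family members, miR-199a-5p and the most abundant miRNA, miR-21a-5p, were lower. Of 550 miRNAs tested, 362 (65.8%) differed between IP and input at an adjusted p under 0.05 (edgeR quasi-likelihood test, Benjamini-Hochberg), 152 (27.6%) higher and 210 (38.2%) lower in IP. In 406 (73.8%) of them the 3 IP libraries lay on one side of the 3 inputs. The median log2 ratio of all miRNAs was -0.26, so that a ratio of 0 lies above the middle of the pool.

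How many miRNAs lay above or below input depended on the scaling of the libraries. With upper-quartile factors 234 of 399 calls were higher in IP and the median ratio was 0.43, and with total mapped reads as library size 122 of 367 were higher and the median was -0.61. Over 5 scalings, 122 miRNAs were called higher and 165 lower in every one, and 2 were called in opposite directions. For most families the number of members that kept their call in all 5 scalings is therefore given.

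**Figure D1:**
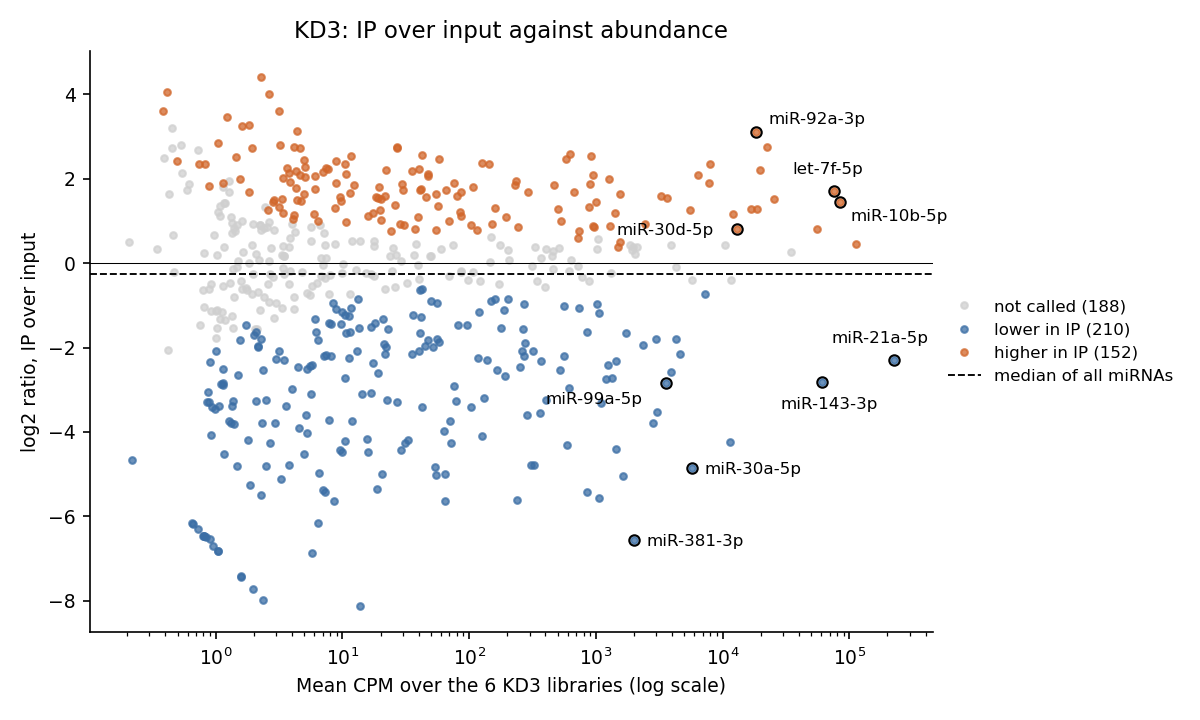
The log2 ratio of IP over input (y) against mean CPM over the 6 KD3 libraries (x, log scale) for 550 miRNAs, one point each, coloured by call, with the median of all miRNAs as a dashed line. Both directions occur at every level, and the chain of points at the lower left is miRNAs with few or no IP reads, whose fitted ratios depend on the prior count.

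Both directions occurred at every abundance. Among 65 miRNAs with a mean over 1000 CPM, 26 were higher and 25 lower in IP, with a median log2 ratio of 0.33, and among 266 under 10 CPM, 55 were higher and 90 lower, with a median of -0.33. The plot of ratio against abundance shows the lower calls reaching farther from 0 than the higher ones. Beyond 4-fold, 148 miRNAs were lower and 56 higher. Of the 550, 45 had at most 3 IP reads over the 3 libraries together, 16 of them none. Of these 45, 43 were called lower, so the lower counts, also beyond 4-fold, include strands with almost no IP reads. The fitted ratios of these strands are not read as sizes. With a filter of a mean of at least 10 counts, 189 of 348 calls were higher in IP.

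The 10 most abundant miRNAs of the input changed places in IP. miR-21a-5p, whose hairpin lies in an exon of Vmp1 (chr11:86584067-86584158, GRCm38) and which is abundant in fibroblasts, made up 37.6%, 36.7% and 35.4% of miRNA reads in the inputs and 9.74%, 8.41% and 5.45% in the IP libraries. Its level fell 4.90-fold (log2 ratio -2.29, SE 0.24, adjusted p = 3.25e-08). miR-143-3p, a miRNA of mesenchymal cells, was at 102230, 93988 and 123660 CPM in input and 17114, 15489 and 12490 CPM in IP. Neither overlapped between groups, and both were called lower in all 5 scalings.

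The places at the top of the IP libraries were taken by let-7i-5p, miR-10b-5p and let-7f-5p. miR-10b-5p, from introns of the Hox genes Hoxd3 and Hoxd4 (hairpin chr2:74726070-74726137, GRCm38), was at 39855, 40516 and 56204 CPM in input and at 126410, 138050 and 107550 CPM in IP, 2.72-fold higher (SE 0.16 on the log2 scale). let-7f-5p was at 36844, 35186 and 33552 CPM in input and at 120540, 109050 and 116790 CPM in IP, 3.28-fold higher (log2 SE 0.17). miR-99b-5p was at 38973 to 42108 CPM in input and 61381 to 77881 CPM in IP. For all of these the IP libraries lay above every input.

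Other abundant miRNAs fell or did not pass the test. miR-100-5p was at 31193 to 32361 CPM in input and 31108 to 42062 CPM in IP, so the groups overlapped, and its log2 ratio of 0.27 (SE 0.16) was not called at an adjusted p of 0.15. It was called higher with RLE factors (0.52, adjusted p = 0.0247), upper-quartile factors (0.97, adjusted p = 0.000634) and DESeq2 (adjusted p = 0.0245), with a mean of at least 10 counts (adjusted p = 0.00111), and without IP replicate C (0.39, adjusted p = 0.0487). With total mapped reads the ratio was -0.064. miR-199a-5p was at 24863, 20323 and 20497 CPM in input and 1437, 889.0 and 1123 CPM in IP, 19.0-fold lower. Its hairpins lie in Dnm3os, an antisense transcript expressed in mesenchyme, and on chromosome 9.

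**Figure D2:**
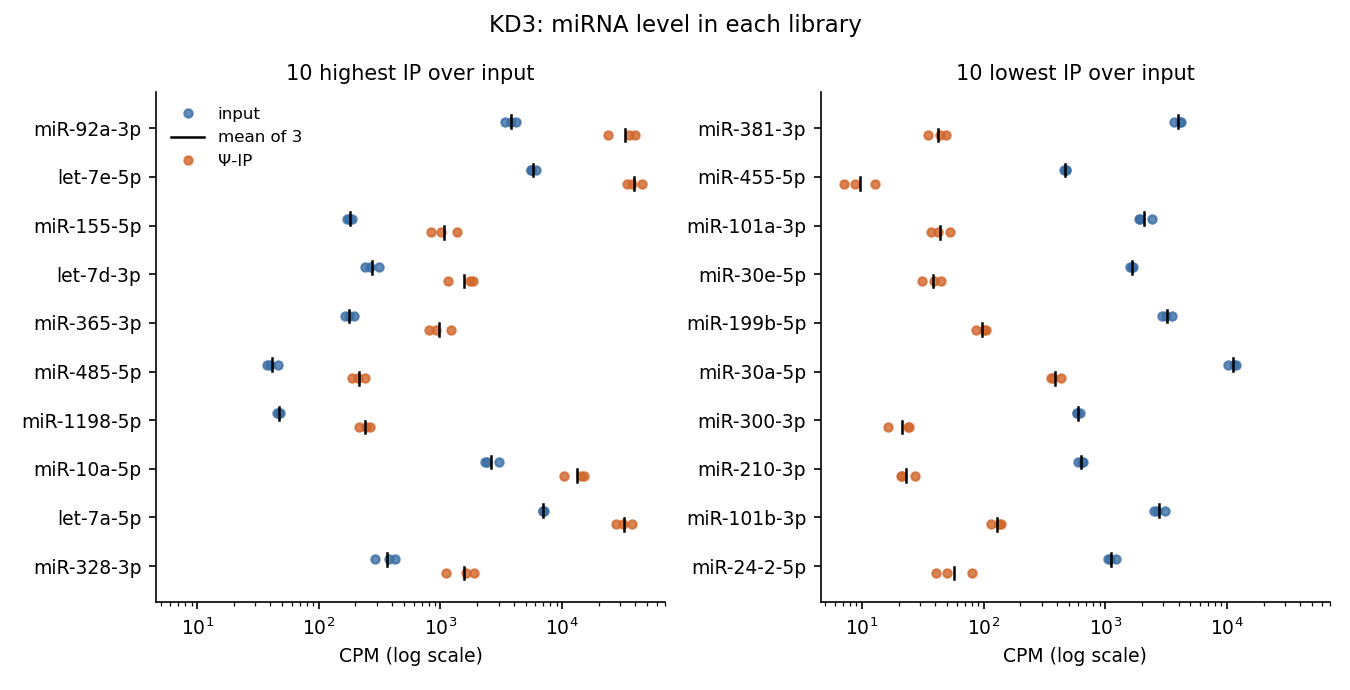
CPM (x, log scale) of the 10 miRNAs with the highest and the 10 with the lowest log2 ratio of IP over input among those at 100 CPM or more, one point per KD3 library and a vertical bar for the mean of 3. In all 20 the input and IP points are apart, by 4.29-fold to 8.65-fold on the left and by 19.7-fold to 94.5-fold on the right.

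Among miRNAs at a mean of 100 CPM or more, miR-92a-3p stood highest. This member of the miR-17/92 cluster, whose products favour cell growth, was at 3391, 3819 and 4166 CPM in input and 23612, 35311 and 39474 CPM in IP. The log2 ratio was 3.11 (SE 0.27, adjusted p = 2.93e-09) and lay between 2.75 and 3.80 over the 5 scalings. let-7e-5p followed, at 5513, 5600 and 6075 CPM in input and 34304, 37291 and 45218 CPM in IP, with a log2 ratio of 2.76 (SE 0.21). Every IP library exceeded every input by several fold in both.

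The remaining 8 of the 10 highest lay close together, with log2 ratios from 2.10 to 2.58 and SEs of 0.20 to 0.36, and neighbours in their order differed by less than their SEs. miR-155-5p, a regulator of immune responses from an exon of Mir155hg, was at 172 to 188 CPM in input and 836 to 1367 CPM in IP. let-7d-3p, the passenger strand of let-7d, was at 240 to 315 CPM in input and 1146 to 1838 CPM in IP. The others were miR-365-3p, miR-485-5p, miR-1198-5p, miR-10a-5p, let-7a-5p and miR-328-3p. All 10 were called higher in all 5 scalings.

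At the other end, miR-381-3p fell the most among miRNAs at a mean of 100 CPM or more. It belongs to the imprinted miR-379/410 cluster, with its hairpin at chr12:109726822-109726896 (GRCm38), and was at 4096, 3695 and 4159 CPM in input and 43.4, 48.6 and 35.0 CPM in IP. This was 94.5-fold lower (log2 ratio -6.56, SE 0.26, adjusted p = 9.16e-15). miR-300-3p of the same cluster, which differs from it by G4A, U21G and C22U (miR-300-3p base first, positions from 1 at the 5′ end), was at 581 to 621 CPM in input and 16.3 to 24.2 CPM in IP.

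miR-455-5p fell by 5.62 on the log2 scale, from 459 to 476 CPM in the inputs to 7.10 to 12.9 CPM in IP. miR-210-3p, the miRNA best known as induced by low oxygen, was at 600 to 655 CPM in input and fell 27.4-fold (log2 ratio -4.78, SE 0.22). miR-24-2-5p, a passenger strand, was at 1055 to 1217 CPM in input and 40.6 to 80.8 CPM in IP. miR-199b-5p was at 2922 to 3561 CPM in input and 86.9 to 104 CPM in IP. With 2 guides each of the miR-30 and miR-101 families, described below, these made up the 10 lowest, all called lower in all 5 scalings.

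The let-7 guides, which restrain growth and hold cells in a differentiated state, were higher in IP as a family. Of 11 tested, 10 were called higher and none lower, 9 of them in all 5 scalings, with a median log2 ratio of 1.71 against -0.26 for all miRNAs. Together they made up 17.1% ± 0.815 (SD, n = 3) of miRNA reads in KD3 input and 41.5% ± 2.82 in IP. The study had described let-7 from these libraries, so its direction here is not independent evidence.

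Within the family the ratios were graded. let-7e-5p was highest at 2.76 (SE 0.21), followed by let-7a-5p at 2.20 (SE 0.27) and, with miR-98-5p between, let-7b-5p at 1.90 (SE 0.31). miR-98-5p was at 460 to 571 CPM in input and 1922 to 2257 CPM in IP. let-7f-5p, let-7d-5p, let-7g-5p and let-7c-5p lay between 1.29 and 1.71, neighbours in that order differing by less than the larger of their SEs. let-7k also stood high, at 2.76 (SE 0.42), but on 8 to 17 input reads and 18 to 59 IP reads.

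let-7i-5p and let-7j stood apart at the low end. let-7i-5p, the most abundant of the family, was at 101270, 92932 and 93355 CPM in input and 129530, 133220 and 129320 CPM in IP. Its groups did not overlap, yet the difference was 1.36-fold (log2 ratio 0.45, SE 0.16, adjusted p = 0.0196), and it was called in 4 of the 5 scalings. The call was lost without input replicate B (adjusted p = 0.0612) or input replicate C (adjusted p = 0.0557). let-7j, at 0.43 (SE 0.19), was not called (adjusted p = 0.0569).

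The sequences of let-7i-5p and let-7j differ over their shared 22 bases by G8U alone (let-7i-5p base first, positions from 1 at the 5′ end), so the division of reads between them is uncertain. Uridines did not order the family: let-7i-5p and let-7j held 10 and 12, let-7a-5p and let-7f-5p 9 each, and let-7e-5p, the highest, 8. let-7e-5p and let-7f-5p differ by G9U and G12A (let-7e-5p base first) and by 1.05 in log2 ratio. let-7a-5p and let-7c-5p differ by A19G (let-7a-5p base first) and by 0.91.

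The passenger strands of the same hairpins did not share one direction. Of 11 tested, 4 were higher and 2 lower in IP, all 6 in all 5 scalings, with a median log2 ratio of -0.20. let-7a-1-3p and let-7c-2-3p, each at -0.20 and not called, have the same sequence, so their values are one measurement. let-7d-3p (2.53, SE 0.28) and let-7b-3p (1.90, SE 0.25) were highest. let-7i-3p had 346, 334 and 205 reads in the inputs and 0, 0 and 1 in the IP libraries, while its partner let-7i-5p was higher in IP. let-7g-3p, not tested, had 8 to 22 reads in input and none in IP.

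**Figure D3:**
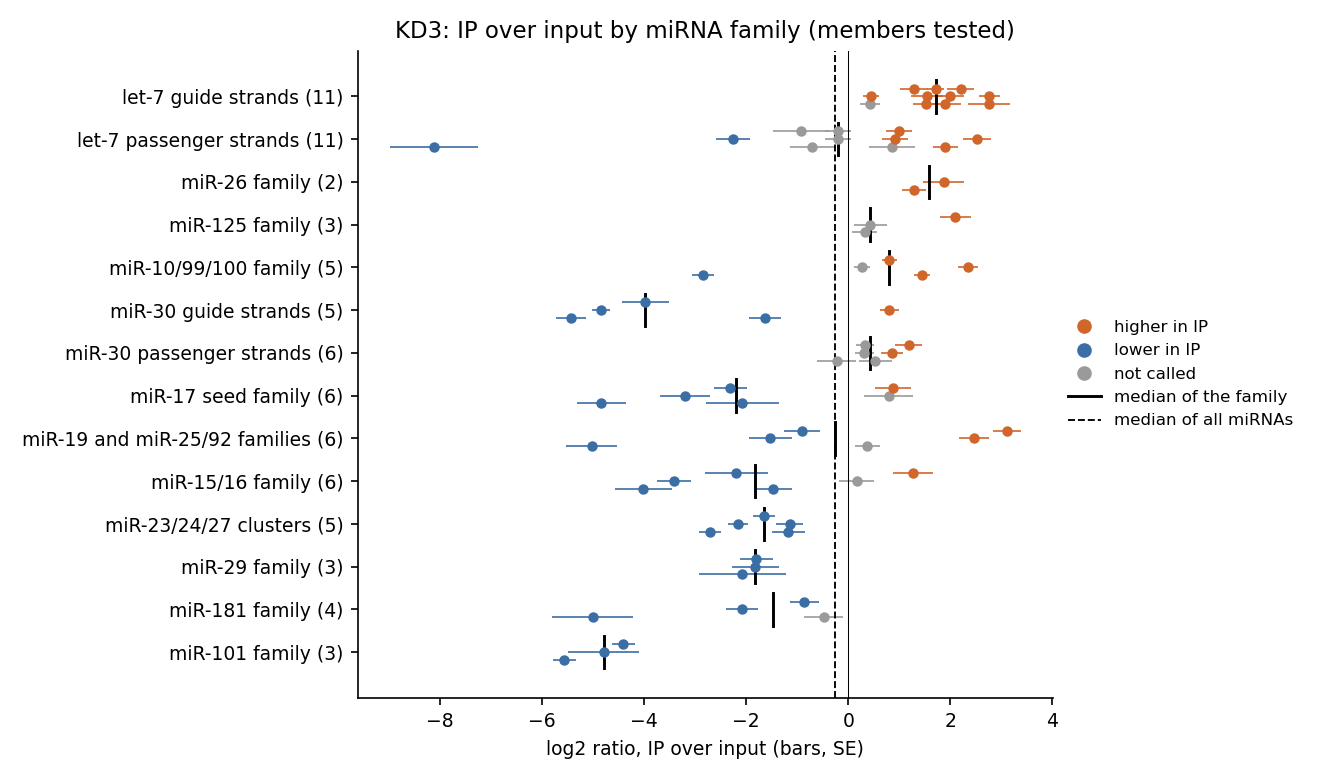
The log2 ratio of IP over input (x, bars are SE) of each tested member of 14 miRNA lists (rows, number tested in parentheses), coloured by call, with the list's median as a vertical bar and the median of all miRNAs as a dashed line. The let-7 guides lie at 0.43 and above, the point farthest left is let-7i-3p with 1 IP read, the miR-29, miR-101 and miR-23/24/27 members lie below 0, and the miR-30 guides and miR-17 seed family hold members on both sides.

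The miR-30 guides, which share a seed and are known for roles in differentiation, split. miR-30a-5p was at 11868, 10303 and 11336 CPM in input and 436, 371 and 358 CPM in IP, 28.8-fold lower (log2 ratio -4.85, SE 0.18, adjusted p = 6.81e-15). miR-30e-5p was at 1670, 1604 and 1690 CPM in input and 44.7, 31.2 and 39.2 CPM in IP, 43.0-fold lower. miR-30d-5p went the other way, from 9831, 9371 and 9188 CPM in input to 18964, 16057 and 14637 CPM in IP, with a log2 ratio of 0.81 (SE 0.18, adjusted p = 0.000559).

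miR-30b-5p and miR-30c-5p were also lower, at -3.98 (SE 0.46) and -1.63 (SE 0.31). All 5 guides kept their call in all 5 scalings. Of the 6 passenger strands, 2 were higher in IP (miR-30c-1-3p and miR-30c-2-3p) and none lower. miR-30a-3p and miR-30e-3p, which differ by G18A (miR-30a-3p base first), had log2 ratios of 0.33 (SE 0.18) and 0.31 (SE 0.19) and were not called. Both were called higher with RLE factors (adjusted p = 0.00391 and 0.0097 in edgeR) and upper-quartile factors, and in DESeq2 (adjusted p = 4.28e-05 and 0.000927). In the edgeR fit without the KD6 libraries miR-30a-3p was called higher (0.32, adjusted p = 0.0375).

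The miR-101 family, known as repressors of the histone methyltransferase Ezh2, fell throughout. miR-101a-3p was at 1940, 1881 and 2404 CPM in input and 53.1, 41.9 and 36.6 CPM in IP, 47.4-fold lower (log2 SE 0.23). miR-101b-3p was at 2649, 2496 and 3107 CPM in input and 140, 134 and 114 CPM in IP, 21.3-fold lower. The annotated miR-101c lies inside the miR-101a-3p sequence, so its 68 to 84 input reads and 1 read in each IP library may be shared with it.

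The miR-10/99/100 family held both ends. miR-10a-5p, from the Hoxb region of chromosome 11, was at 2322, 2423 and 3040 CPM in input and 14354, 15101 and 10401 CPM in IP, a log2 ratio of 2.36 (SE 0.20). miR-10b-5p, which differs from it by U12A (miR-10a-5p base first), had a ratio of 1.45 (SE 0.16). miR-99b-5p stood at 0.80 (SE 0.14).

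miR-99a-5p was the one member called lower, from 6178, 6411 and 6224 CPM in input to 1002, 794 and 814 CPM in IP. Its log2 ratio was -2.85 (SE 0.21, adjusted p = 2.68e-10). It differs from miR-100-5p, at 0.27 (SE 0.16), by A16U alone (miR-100-5p base first), and their ratios lay 3.12 apart. In this pair the strand with the additional uridine was the one lower in IP, but close pairs went both ways. The strand with more uridines had the higher ratio in miR-20a-5p beside miR-17-5p and miR-10a-5p beside miR-10b-5p. It had the lower ratio in miR-30e-5p beside miR-30a-5p and let-7a-5p beside let-7e-5p.

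The miR-17/92 cluster, encoded in exons of Mir17hg on chromosome 14, gave products at both extremes. miR-17-5p, with its hairpin at chr14:115043671-115043754 (GRCm38), was at 247, 241 and 223 CPM in input and 21.9, 14.2 and 39.9 CPM in IP, a log2 ratio of -3.19 (SE 0.49). miR-20a-5p, chr14:115044157-115044263, was at 886 to 917 CPM in input and 1224, 1328 and 2423 CPM in IP, a ratio of 0.87 (SE 0.36, adjusted p = 0.0372). These share a seed and differ by C1U and C12U (miR-17-5p base first), and their ratios lay 4.07 apart, the widest gap of 33 pairs of miRNAs at 100 CPM or more, of equal length and with at most 3 base differences.

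The call of miR-20a-5p did not hold everywhere. It was lost without IP replicate C (0.49, adjusted p = 0.255), without any one of the 3 inputs (adjusted p = 0.076 to 0.083) and with total mapped reads as library size. miR-19b-3p, chr14:115044305-115044391 and a second hairpin on chromosome X, was at 102 to 113 CPM in input and 2.25 to 3.68 CPM in IP, a log2 ratio of -5.03 (SE 0.50). miR-92a-3p, chr14:115044427-115044506 and likewise on X, was the highest of the miRNAs at 100 CPM or more. Hairpins of one transcript thus gave strands both above and below input.

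Over the miR-17 seed family, 1 of 6 tested members was higher and 4 lower in IP, with a median of -2.19, and in all 5 scalings none was higher and 3 were lower. Over the miR-19 and miR-25/92 families, 2 of 6 were higher, miR-92a-3p and miR-92b-3p (2.47, SE 0.30), both in all 5 scalings, and 3 lower, 1 of them in all 5. miR-25-3p, with the same seed as miR-92a-3p, was at 0.38 (SE 0.25) and not called. In the miR-15/16 family, known as restraints on the cell cycle, 4 of 6 were lower, led by miR-497a-5p (-4.02, SE 0.56) and miR-322-5p (-3.42, SE 0.33), and miR-16-5p alone was higher. All 4 kept their call in all 5 scalings, and miR-16-5p did in 4.

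Several families moved in one direction. All 5 guides of the miR-23/24/27 clusters were lower, 3 of them in all 5 scalings, with a median of -1.65. miR-24-3p, at 7540 to 7641 CPM in input and 1440 to 2162 CPM in IP, and miR-27a-3p, at -2.71 (SE 0.22), were among them. The 3 members of the miR-29 family, which represses collagen genes, were lower with ratios from -2.08 to -1.80, 2 of them in all 5 scalings. miR-29b-3p had the widest error of these (SE 0.85, adjusted p = 0.0366).

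Of the miR-181 family 3 of 4 were lower, 2 of them in all 5 scalings, led by miR-181c-5p. Both members of the miR-26 family were higher, miR-26a-5p at 1.30 (SE 0.23) and miR-26b-5p at 1.87 (SE 0.41). miR-125a-5p was higher at 2.10 (SE 0.31), and its relatives miR-125b-5p (0.43, SE 0.33) and miR-351-5p (0.32, SE 0.24) were not called. The GRCm38 hairpins of miR-125a-5p and let-7e-5p lie at chr17:17830812-17830879 and chr17:17830352-17830444, both within Spaca6. In the cluster of miR-221 and its neighbour miR-222-3p the latter was called higher (0.92, SE 0.31) and miR-222-5p lower (-1.24, SE 0.26), neither in all 5 scalings.

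The imprinted miR-379/410 cluster had the most strands tested of any list, 54 of 73. Of these, 11 were higher and 28 lower in IP (9 and 21 in all 5 scalings), with a median of -0.90. Over all miRNAs tested, 27.6% were higher and 38.2% lower. Some lower strands of the cluster, such as miR-758-3p and miR-154-3p, had no IP read. Among the cluster's 14 members at 100 CPM or more, 5 were higher, 6 lower and 3 not called, from -6.56 for miR-381-3p to 2.37 for miR-485-5p. miR-485-5p was at 37.6, 39.7 and 45.7 CPM in input and 210, 240 and 186 CPM in IP. miR-543-3p (1.84, SE 0.26), miR-134-5p (0.87, SE 0.18) and miR-409-3p (0.77, SE 0.17) were also higher. miR-379-5p, the most abundant of the cluster, did not differ detectably (-0.08, SE 0.20). Of the repeat-like Sfmbt2 intronic cluster, whose members are near copies so that reads may be split among them, 24 of 80 were tested, 4 higher and 6 lower (4 and 5 in all 5 scalings).

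The strands of one hairpin were compared with each other. Of 172 hairpins with both arms tested, 18 had both arms higher, 44 both lower, 32 opposite calls and 78 an arm that was not called. The median difference between arms was 1.77 on the log2 scale, strands with few IP reads included, and the ratios of the arms had r = 0.25 over the 172 pairs. Of the 23 hairpins with both arms at 100 CPM or more, 2 had opposite calls, 4 both higher, 5 both lower and 12 an arm not called, with a median difference of 1.18 and r = 0.35. Among all tested strands, 77 of 244 5p strands were higher and 97 lower, and 67 of 263 3p strands were higher and 101 lower. The medians were -0.26 and -0.23. Over all miRNAs tested, 27.6% were higher and 38.2% lower, so both arms lay near the shares of the whole.

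**Figure D4:**
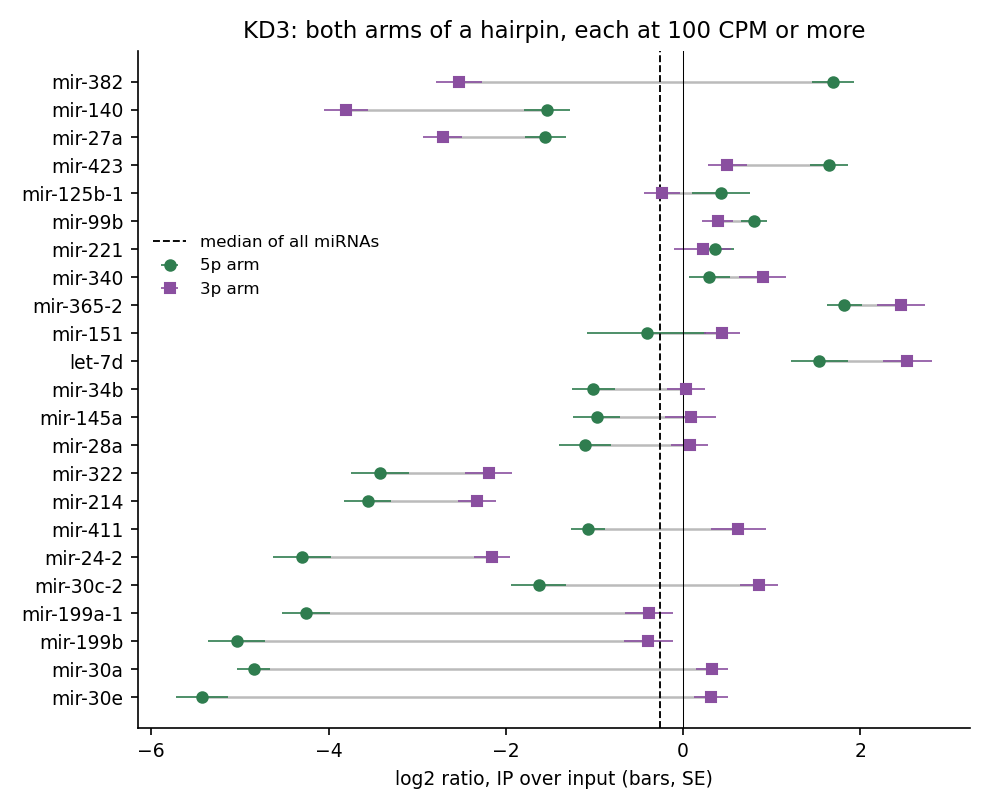
The log2 ratio of IP over input (x, bars are SE) for the 5p arm (circles) and 3p arm (squares) of the 23 hairpins with both arms at 100 CPM or more, with the median of all miRNAs as a dashed line. In mir-30e, mir-30a, mir-199b and mir-199a-1 the 5p arm lies far below the 3p arm, and in mir-382 the arms lie on opposite sides of 0.

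The widest gaps among the 23 hairpins with both arms at 100 CPM or more were in mir-30e, mir-30a, mir-199b, mir-382 and mir-199a-1. In mir-30e and mir-30a the 5p guide was far lower in IP and the 3p passenger was not called with TMM scaling. miR-30a-3p was at 349 to 372 CPM in input and 423 to 492 CPM in IP, against the fall of its partner from 10303 to 11868 CPM to 358 to 436 CPM. miR-382 was the one of the 5 with opposite calls: miR-382-5p rose from 145, 139 and 128 CPM to 386, 421 and 520 CPM, and miR-382-3p fell from 278, 270 and 299 CPM to 58.9, 46.5 and 42.0 CPM.

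miR-199a-5p and miR-199b-5p fell while the 3p strands had log2 ratios of -0.39 (SE 0.27) each and were not called. miR-199a-3p and miR-199b-3p have the same sequence, so the counting divides their reads and the values are one measurement. In the fit without the KD6 libraries both were called lower (adjusted p = 0.012 and 0.0131), and likewise with total mapped reads as library size (adjusted p = 0.0159 and 0.0165). Both were also called lower in the edgeR fit of the KD3 libraries alone (adjusted p = 0.0299 and 0.0305), and there with a replicate block (adjusted p = 0.0336 and 0.0335). The same held without an abundance filter (adjusted p = 0.00247 and 0.00439). With upper-quartile factors miR-199a-3p and miR-199b-3p turned to 0.30 each and were not called.

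A shared seed did not fix the direction. RefSeq sequences matched 475 of the 550 miRNAs (86.4%), and 12 seeds had 3 or more tested members. In 4 of these seeds both directions were called: AAAGUGC of the miR-17 family, AGCAGCA of the miR-15/16 family, ACCCGUA of the miR-99/100 family and AUUGCAC of the miR-25/92 family. Of these 4, ACCCGUA alone held both directions in all 5 scalings, since miR-20a-5p and miR-16-5p kept their higher call in 4 scalings and miR-32-5p its lower call in 2. The miR-30 seed GUAAACA, with 3 of 3 lower, is counted here without miR-30b-5p and miR-30d-5p, which had no matched sequence. As given above, miR-30d-5p was higher and the other miR-30 guides lower in all 5 scalings. The let-7 seed GAGGUAG had 10 of 10 members higher. The seed CAGUGCA, of miR-148a-3p, miR-148b-3p and miR-152-3p, had 3 of 3 lower, with ratios from -4.43 to -2.95. Across the 33 close pairs at 100 CPM or more, made of 25 miRNAs that recur in several pairs, the median difference in ratio was 0.66 and 23 were under 1.

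Base composition went with the ratio only loosely. Of 201 tested miRNAs that start with U, 36.8% were higher and 31.8% lower, and of 126 that start with A, 17.5% were higher and 51.6% lower. miRNAs called higher had a median of 7 uridines and 18.2% adenine, and those called lower 6 uridines and 25.0% adenine. Across 475 miRNAs the Spearman correlation of the ratio with percent U was 0.084 and with percent A -0.296, and across 131 at 100 CPM or more it was 0.309 and -0.276. These points share families, so relatives with like sequences count several times.

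Of the short motifs searched on the miRNA strand alone, GUAG occurred in 15.0% of miRNAs called higher, 7.65% of those called lower and 9.68% of all 475. The let-7 seed holds this motif. UNUAG, which holds GUAG where its N is G, occurred in 7.52%, 4.92% and 6.32%, and UNUAA in 3.01%, 4.37% and 3.79%. A match is a description of the letters and says nothing of where a Ψ lies.

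Weighted by reads, few miRNAs set the composition of the libraries. The 10 most abundant miRNAs of each library made up 75.8% ± 0.463 (SD, n = 3) of miRNA reads in input and 71.8% ± 2.09 in IP. 3p arms made up 20.6% ± 1.24 and 10.9% ± 1.19. Among them miR-143-3p alone made up 10.4% ± 1.21 and 1.54% ± 0.239, so this fall in 3p reads was largely that of one miRNA. Percent U of miRNA reads was 34.0% ± 0.191 and 34.6% ± 0.324, over the 84.7% to 86.7% of input reads and 94.2% to 95.1% of IP reads whose miRNA had a sequence. The top 10 share, the 3p share, percent U and the share outside miRNA rows did not overlap between groups. Each had an exact permutation p = 0.1 (two-sided, 3 against 3, the smallest such a design can give). The difference in percent U was 0.643 points with all miRNAs, 2.24 without miR-21a-5p and -2.74 without the let-7 guides.

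Recovery in KD3 and WT cells was much alike in order. In WT 361 of 550 miRNAs were called, 140 higher and 221 lower, with a median log2 ratio of -0.35. The same direction was called in both for 322 miRNAs, 40 were called in KD3 alone and 39 in WT alone, and none was called in opposite directions. Across all 550 miRNAs the KD3 and WT ratios had Pearson's r = 0.922 and Spearman's rho = 0.954, and 458 differed by less than 1 on the log2 scale. Across the 149 miRNAs at 100 CPM or more, the KD3 and WT ratios had Pearson's r = 0.994 and Spearman's rho = 0.99, and all 149 differed by less than 1 on the log2 scale. These libraries share no sample between KD3 and WT.

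**Figure D5:**
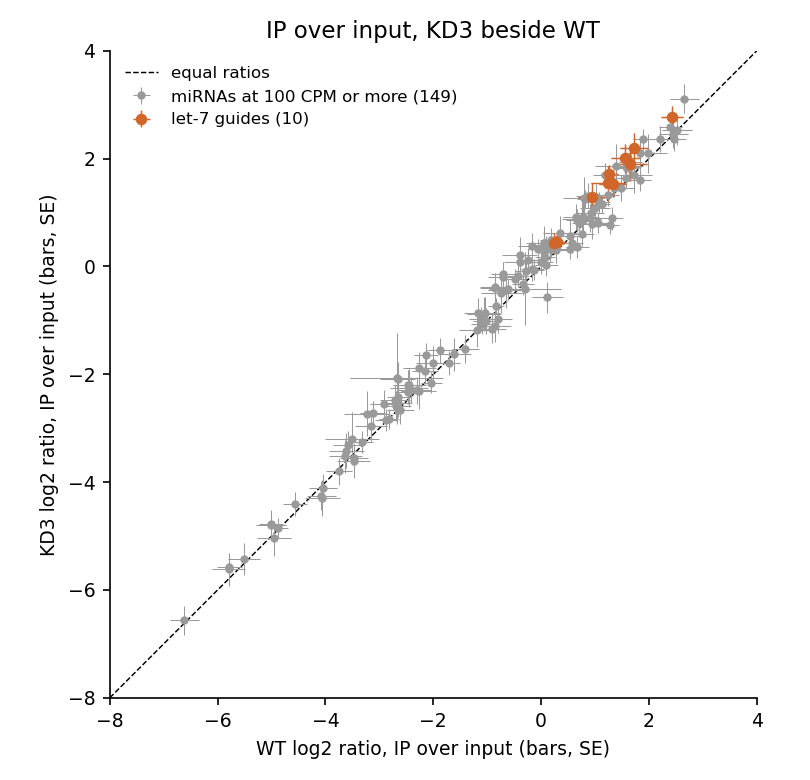
The log2 ratio of IP over input in KD3 (y) against that in WT (x), both with SE bars, for the 149 miRNAs at 100 CPM or more, with the 10 let-7 guides among them in colour and equal ratios as a dashed line. Points follow the line over the whole range, with the KD3 ratio the larger for 118 of the 149; with total mapped reads as library size the median change of all 550 turns from 0.13 to -0.18.

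The change in ratio between KD3 and WT, tested itself as an interaction, was called for none of the 550 miRNAs (0.0%) by edgeR, with 17 at an unadjusted p under 0.05 and a smallest adjusted p of 0.303. DESeq2 also called 0, with 14 at an unadjusted p under 0.05 and a smallest adjusted p of 0.18. The median change was 0.13, with a median SE of 0.55 over all miRNAs and 0.34 over those at 100 CPM or more, so changes of the size of these errors could not be detected.

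The 3 miRNAs with the smallest p for the change were rare strands. miR-17-3p had 228, 238 and 132 reads in KD3 input and 5, 8 and 23 in KD3 IP, against 156, 217 and 286 in WT input and 4, 3 and 2 in WT IP. miR-21a-3p had 162 to 224 reads in KD3 input and 3, 0 and 8 in KD3 IP, and none in the 3 WT IP libraries beside 158, 311 and 354 in WT input. Without the abundance filter this was the one change called (adjusted p = 0.0378), on those 11 IP reads. miR-1a-3p, a muscle miRNA, had 7 to 13 reads in KD3 input and 19, 31 and 43 in KD3 IP, and 13 to 24 and 10 to 30 in WT.

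All 11 let-7 guides had a larger log2 ratio in KD3 than in WT, with a median change of 0.34 against 0.13 for all miRNAs, and none had an unadjusted p under 0.05. let-7a-5p changed from 1.72 in WT to 2.20 in KD3 and let-7f-5p from 1.27 to 1.71. With total mapped reads as library size 6 of the 11 were above 0, with a median of 0.02 against -0.18. The share of reads outside miRNA rows, higher in KD3 IP than in WT IP, moves with this scaling, and its part in the change was not tested. No let-7 guide had a called change between KD3 and WT. The study reports let-7 as unaffected by the knockdown and relates this to an interaction with dyskerin and TruB1 in place of Pus1.

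The study described 4 miRNAs as changed by the knockdown, chosen on these libraries, so their values are not independent evidence. Its main text states neither the day nor the direction of that change, but concludes that Pus1 pseudouridylates some mouse miRNAs, which implies lower recovery after knockdown. The changes here compare day 3 alone with WT. miR-16-5p was at 279, 274 and 327 CPM in KD3 input and 438, 645 and 1045 CPM in IP, miR-20a-5p is given above, miR-30c-1-3p was at 11.5, 9.37 and 11.4 CPM and 24.1, 24.1 and 25.0 CPM, and miR-342-3p at 84.8, 80.2 and 90.1 CPM and 171, 104 and 166 CPM. All 4 were called higher in KD3 IP, with ratios of 1.27, 0.87, 1.19 and 0.79. The WT ratios were 0.79, 0.75, 0.51 and 0.95, and the changes were 0.49, 0.12, 0.68 and -0.16, none of them called.

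Of these 4, miR-30c-1-3p alone kept its call in all 5 scalings. The call of miR-16-5p was lost without IP replicate C (0.88, adjusted p = 0.0651). That of miR-342-3p was lost without input replicate A or B or IP replicate A or C (0.67 to 0.79, adjusted p = 0.053 to 0.0744).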

How the data were processed

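The authors isolated RNAs of miRNA size on a gel, eluted them from a Ψ antibody with Ψ triphosphate, and ran SeqImp (version not given in the sources used here) with mm10, Ensembl 89 and miRBase 21. They deposited estimated counts per mature miRNA and precursor, not normalized, replicates apart, in which a read matching several loci is divided. Of non-zero values 47.0% were not whole. They tested with DESeq2. Their second set of deposited columns, counts of distinct sequences, was used for no result.

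Rows of one mature miRNA were summed (78 miRNAs, 216 rows) and rounded. The row of total mapped reads names no miRNA and stayed out of library sizes and tests. Counts were fitted in R 4.3.3 with edgeR 4.0.16 (TMM, filterByExpr, glmQLFit, glmQLFTest; 18 libraries, 6 group means, no block), with Benjamini-Hochberg adjustment over 550 miRNAs and a threshold of 0.05. The SE of a ratio was taken as its absolute log2 value over the root of the F statistic. Read composition was compared by exact permutation. DESeq2 1.42.0 and other settings were alternatives. The procedure was tested on simulated counts. Sequences are from RefSeq and annotations from GENCODE M21, both GRCm38, the assembly mm10 names, with 1-based coordinates.

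Nothing states that replicate letters mark separate cultures, so p-values measure the spread between these libraries. The members, lists and naming rule were chosen with earlier results of these data known. The rule takes the 10 highest and 10 lowest log2 ratios among called miRNAs at a mean of 100 CPM over the 6 KD3 libraries with groups apart, the 10 most abundant in KD3 input, the 5 widest arm pairs with both arms at 100 CPM, the 3 smallest p for the change, and any list member. miR-148a-3p, miR-148b-3p and miR-152-3p were named after their values were seen. Intervals are limited by depth: KD3 libraries held 2809155 to 13682219 miRNA reads. The fit of 18 libraries also held input replicate A of the day 6 knockdown (KD6), with 224509 miRNA reads.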

Additional observations from a re-analysis of the deposited data

How the results depend on the processing

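Of 816 values for 42 named miRNAs, 761 kept direction and side of the threshold, 25 passed it newly, 23 lost it and 7 changed sign, called in neither setting. With total mapped reads the log2 ratio was -0.064 for miR-100-5p, -0.039 for miR-30e-3p and -0.021 for miR-30a-3p. miR-199a-3p and miR-199b-3p were at 0.30 each with upper-quartile factors, and at 0.135 and 0.133 with a mean of at least 10 counts. The median log2 ratio of all miRNAs moved from -0.26 to -0.028 with RLE factors, 0.43 with upper-quartile factors, -0.61 with total mapped reads, 0.23 with a mean of at least 10 counts and -0.035 with DESeq2. miRNAs called higher numbered 234 with upper-quartile factors and 91 in a test beyond 2-fold, against 152. Without an abundance filter 1 change between KD3 and WT was called. Leaving out each library in turn gave 332 to 350 calls, 134 to 147 higher, medians from -0.33 to -0.19 and 0 changes called. Whether the replicate letters pair KD3 IP with input could not be told. Deviations from the group means correlated at 0.38 (A), 0.111 (B) and -0.0685 (C), and not every library correlated best with its own letter. Deviations within so few libraries constrain each other, so these correlations cannot exclude pairing. A replicate block gave 344 calls, 141 higher, and 342 within the KD3 libraries alone. Without the KD6 libraries there were 395 calls, 171 higher.

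For reads, the IP minus input difference in percent GC was 2.40 from the largest precursor row, -1.81 without miR-21a-5p, 4.84 without the let-7 guides and 0.0167 without both. Percent U (0.643) was 0.0998, 2.24, -2.74 and 1.31, and reads with a first U (1.36) were -1.54, 14.1, -7.10 and 14.8, in that order. The top 10 share (-4.05) was 8.71 without miR-21a-5p and 11.2 without both. The 3p share (-9.69) was -20.6 without miR-21a-5p, -6.15 without the let-7 guides and -22.9 without both. No setting left out miR-143-3p, the most abundant 3p strand of the input. Leaving out each KD3 library gave 1.27 to 1.46 for GC, 0.456 to 0.748 for U, 0.878 to 1.69 for a first U, -4.82 to -2.86 for the top 10, -10.2 to -8.98 for 3p arms and 19.8 to 25.0 for reads outside miRNA rows. The causes were not tested.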
